A study of Mus musculus with 47 samples.

Results

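The retina of 20-month-old (aged) mice was compared with that of 6-week-old (young) mice at ZT10, which is 10 hours after lights on and near the end of the light phase (ZT, zeitgeber time). All mice were C57BL/6, without a transgene, an induced mutation or a drug in the labels, and lived under 12 hours of light and 12 hours of darkness. The members are the 4 aged libraries and young replicates 1, 2 and 3 of that time, 7 of the 47 libraries of the series, in which 15222 of 57180 listed genes reached 0.5 RPKM (reads per kilobase of transcript per M reads) in at least 3 libraries. Per the labels, right eyes of 4 mice per age and time were used, the anterior segment was cut away and the retina was dissected under dim red light. The sex of the mice is not given there, and the Y-linked Ddx3y was detected in every ZT10 library. Young replicate 4 was left out as a library of low quality, and results with it are given as a check.

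The neural retina holds rod and cone photoreceptors, the bipolar, horizontal, amacrine and ganglion cells that process and send on their signals, Müller glia that span the tissue, and resident microglia. With age this tissue is known to gain glial and immune activity and basement membrane material, and photoreceptors are known to be lost slowly. Most retinal cells carry a circadian clock, a feedback loop of transcription factors that is set by light, and both ages were sampled here at the same clock time.

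The 7 libraries held 33.0 to 42.8 M reads each, 34.2 to 42.5 M in the aged and 33.0 to 42.8 M in the young ones. The labelled tissue carried its defining transcripts in every library, such as the rod transducin gene Gnat1 at 2698, 2257, 3303 and 2770 RPKM in the aged libraries and 2745, 2563 and 2890 RPKM in the young ones. Aged replicate 3 stood apart from the other aged libraries. Summed ganglion cell markers were 929, 1054, 502 and 928 RPKM in aged replicates 1 to 4, against 954, 801 and 723 RPKM in young replicates 1 to 3, and amacrine markers were 291 RPKM in aged replicate 3, against 488 to 560 RPKM in the other aged libraries. The mean chi-square per gene between aged replicate 3 and the other aged libraries was 63.7 to 124, against 8.45 to 22.4 among those others and 8.69 to 9.82 among the young libraries. These values set libraries against counting error only and served to look for a library listed more than once, of which there was no sign. In young replicate 4, with 55.5 M reads, only 19361 genes were above 0, against 23480 to 24989 genes in the 7 libraries used, and its ganglion markers summed to 139 RPKM. In such bulk tissue, fewer cells of a type and less RNA per cell cannot be told apart.

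**Figure D1:**
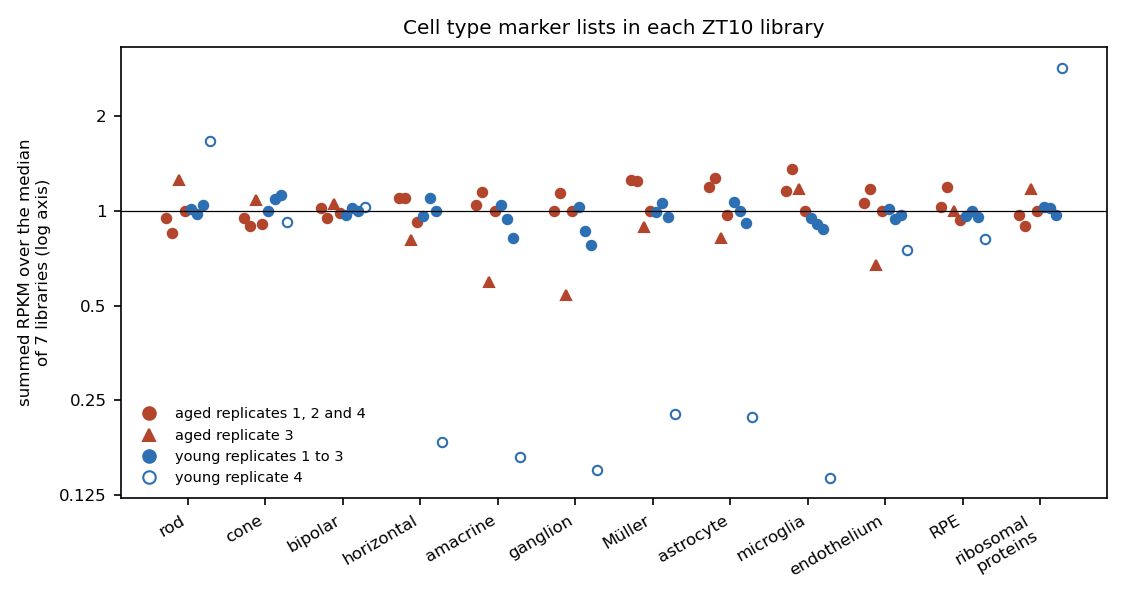
Summed RPKM of marker lists in each ZT10 library, divided by the median of the 7 libraries used, on a log axis; red stands for aged and blue for young libraries. Aged replicate 3 (triangle) sits below the other libraries used for the amacrine and ganglion lists, and young replicate 4 (open circle) lies near 0.15 of the median for ganglion and microglia markers.

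Few genes passed the test for an age difference at ZT10 in these 7 libraries. A gene was called where limma's adjusted p (Benjamini-Hochberg, over all 15222 genes) was under 0.05 and the fold change above 1.5, the cut-offs the study names. The fold change was taken on the log2(RPKM + 0.5) scale. Of all genes tested, 15 were called (0.0985%): 13 were higher (0.0854%) and 2 lower (0.0131%) in aged retina. The adjusted p alone was passed by 16 genes (0.105%), of which 3 were lower (0.0197%), the further one being Mylk, and 1281 genes had an unadjusted p under 0.05. The median log2 difference over all genes was -0.01, and 46.1% of all differences were above 0.

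**Figure D2:**
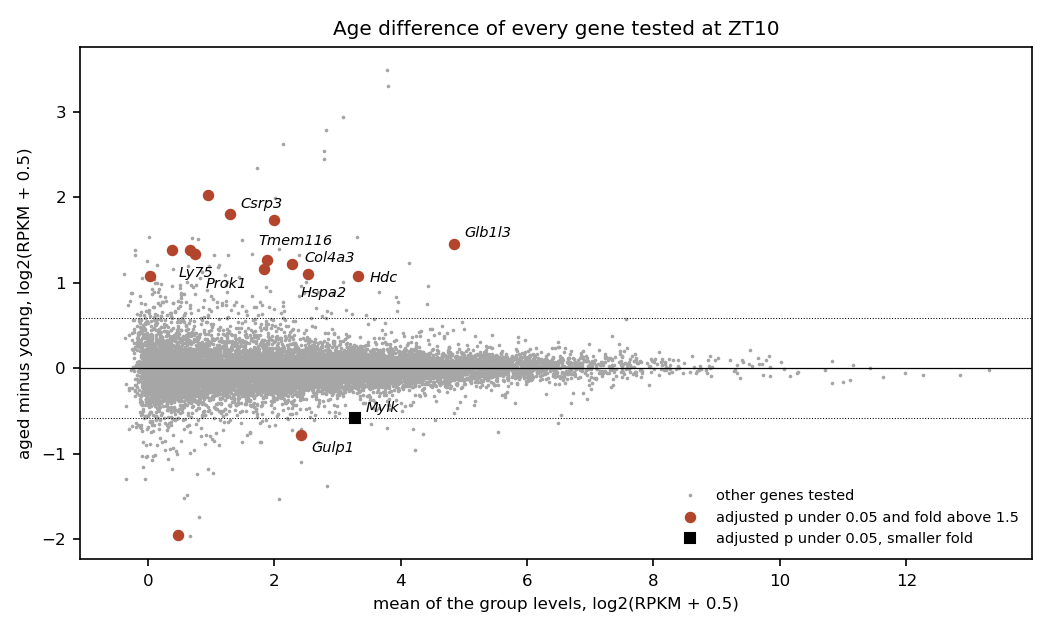
Difference aged minus young at ZT10 against the mean level of each of 15222 genes, both on the log2(RPKM + 0.5) scale; dotted lines mark a 1.5-fold difference. Red circles are the 15 called genes and the black square is Mylk; the cloud is centred near 0, and most called genes lie above it.

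Col4a3, a gene of basement membrane collagen, had the smallest adjusted p. It encodes the alpha 3 chain of type IV collagen, which joins the alpha 4 and alpha 5 chains in a network found in specialised basement membranes. Its level was 7.01, 7.23, 6.99 and 6.50 RPKM in the aged libraries, against 2.66, 2.73 and 2.65 RPKM in the young ones, with a gap between the groups far wider than the spread inside either. The log2 difference was 1.22 ± 0.06 (SE; all such differences are aged minus young on the log2(RPKM + 0.5) scale, which understates the change of low genes), with limma's adjusted p = 0.00129. Young replicate 4, which the fit did not use, had 2.47 RPKM, beside the other young libraries.

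Col4a4, the partner gene, lies head to head with Col4a3 on chromosome 1, and the bases between their starts are shown because the pair is known to share them as a promoter and both had aged libraries wholly above the young ones. The GENCODE M21 starts are 71 bases apart, and the bases from one to the other come from RefSeq's promoter entry of Col4a4 (GRCm38.p6, chr1:82586849-82586921, minus strand). Read 5′ to 3′ towards Col4a4, capitals mark the first base of Col4a3 at the left, on the other strand, and of Col4a4 at the right.
Col4a3/Col4a4 start region: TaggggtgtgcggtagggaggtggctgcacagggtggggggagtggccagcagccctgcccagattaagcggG
This stretch is 68.5% G or C, and the 300-base window around it is 63.3% G or C, against a median of 52.7% over the 32851 promoter windows of that table. The letters TATAAA were on neither strand of this window, and 13.6% of those windows hold them on one strand or the other. Col4a4 had 2.88, 3.05, 3.19 and 3.00 RPKM in the aged libraries, against 2.05, 1.82 and 1.84 RPKM in the young ones. The groups did not overlap, but the log2 difference of 0.55 ± 0.08 missed the threshold in limma (adjusted p = 0.0576) and passed it when the spread was estimated from the 46 libraries without young replicate 4 (adjusted p = 0.00913). Those 46 include aged ZT6 replicate 3, a library with only 19310 genes above 0, and without that library too the adjusted p of Col4a4 was 0.00645. Young replicate 4 had 1.18 RPKM. Col4a1 and Col4a2, the chains of ordinary basement membrane, had log2 differences of -0.14 and -0.23 with overlapping groups. Of the 15 collagen and matrix genes tested, 1 was higher by the adjusted p and none lower, 6 had a difference above 0, and their median log2 difference was -0.13.

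Among genes for secreted and surface proteins, Prok1 and Ly75 were higher in aged retina. Prok1 encodes prokineticin 1, a secreted ligand of G protein-coupled receptors that acts on endothelial cells and neurons. Its level was 4.41, 4.32, 6.28 and 4.41 RPKM in the aged libraries, against 2.02, 1.79 and 1.79 RPKM in the young ones, a log2 difference of 1.16 ± 0.13 (limma's adjusted p = 0.0316). Aged replicate 3 held the high value, young replicate 4 read 2.92 RPKM, and the difference without that library was 1.05 (adjusted p = 0.00297). Ly75 encodes DEC-205, an endocytic receptor known from dendritic cells. It had 1.81, 2.53, 2.60 and 1.77 RPKM in the aged libraries, against 0.391, 0.605 and 0.663 RPKM in the young ones, and every aged value was above 1.7 RPKM while no young value reached 0.7 RPKM. Its log2 difference was 1.34 ± 0.17 (adjusted p = 0.0459), and young replicate 4 had 0.235 RPKM.

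A pair of enzyme genes rose as well. Glb1l3, a member of the beta-galactosidase family and the most abundant of the called genes, had 40.2, 41.2, 60.5 and 47.6 RPKM in the aged libraries, against 13.9, 19.3 and 17.2 RPKM in the young ones. Every aged library was above 40 RPKM and no young one used reached 20 RPKM, and the log2 difference was 1.46 ± 0.16 (adjusted p = 0.0273). Hdc encodes histidine decarboxylase, the enzyme that makes histamine. Its level was 12.6, 12.4, 15.9 and 15.4 RPKM in the aged libraries, against 6.16, 6.39 and 6.47 RPKM in the young ones, a log2 difference of 1.08 ± 0.10 (adjusted p = 0.0128). The 3 young libraries were tightly grouped. Young replicate 4 read 11.5 RPKM for Hdc and 31.7 RPKM for Glb1l3, between the groups for both genes and nearer the aged one for Hdc.

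Csrp3, Hspa2 and Tmem116 complete the called genes with a full name and higher levels in aged retina. Csrp3 encodes muscle LIM protein, a component of the contractile apparatus in striated muscle, and had the largest difference among the genes with a full name. Its level was 3.69, 3.10, 5.88 and 3.87 RPKM in the aged libraries, against 0.829, 0.813 and 0.759 RPKM in the young ones, a log2 difference of 1.80 ± 0.18 (adjusted p = 0.0224). Aged replicate 3 was the highest, young replicate 4 read 2.50 RPKM, and the difference without aged replicate 3 was 1.64 (adjusted p = 0.00183). The 3 tested genes of the skeletal muscle list, Acta1, Mylpf and Pvalb, had overlapping groups and log2 differences of 0.24, -0.03 and 0.02. The summed muscle list ran from 23.1 to 31.3 RPKM in the aged libraries, against 23.9 to 31.6 RPKM in the young ones. Like the ganglion cell sum, it was lowest in aged replicate 3. Its genes need not come from muscle in this tissue, and the part of muscle in the Csrp3 difference was not tested.

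Hspa2, an HSP70 chaperone best known from the testis, had 8.64, 7.64, 7.24 and 8.61 RPKM in the aged libraries, against 3.77, 3.08 and 3.57 RPKM in the young ones. The log2 difference was 1.10 ± 0.09 (adjusted p = 0.00933), and young replicate 4 was lower still at 0.681 RPKM. Tmem116 encodes a membrane protein of little known function. It had 5.06, 4.83, 5.97 and 5.18 RPKM in the aged libraries, against 1.93, 1.98 and 1.73 RPKM in the young ones, with a log2 difference of 1.27 ± 0.09 (adjusted p = 0.00421) and narrow spreads on both sides, while young replicate 4 read 2.23 RPKM.

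Only a few genes were lower. Gulp1 encodes an adaptor protein for the engulfment of apoptotic cells. Its level was 3.64, 3.23, 3.85 and 3.66 RPKM in the aged libraries, against 6.61, 7.01 and 6.00 RPKM in the young ones, and the log2 difference was -0.78 ± 0.08 (adjusted p = 0.0224). Young replicate 4 read 5.24 RPKM for Gulp1, between the groups. Mylk, the myosin light chain kinase of smooth muscle, passed the adjusted p but narrowly missed the fold cut-off on the log2(RPKM + 0.5) scale, with an aged over young ratio of mean RPKM of 0.656. It had 7.24, 7.32, 8.06 and 7.25 RPKM in the aged libraries, against 11.0, 11.4 and 11.7 RPKM in the young ones, a log2 difference of -0.58 ± 0.06 (adjusted p = 0.0224). Young replicate 4 read 5.76 RPKM for Mylk, below every aged library, and with it the difference was -0.35 (adjusted p = 0.818). The strongest fall was that of a gene known here only by its identifier, ENSMUSG00000120235, which had 0.238, 0.274, 0.156 and 0.128 RPKM in the aged libraries, against 2.34, 3.01 and 1.45 RPKM in the young ones (log2 difference -1.95 ± 0.21, adjusted p = 0.0224). It rested on 4 to 8 reads in the aged libraries, against 37 to 95 reads in the young ones.

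**Figure D3:**
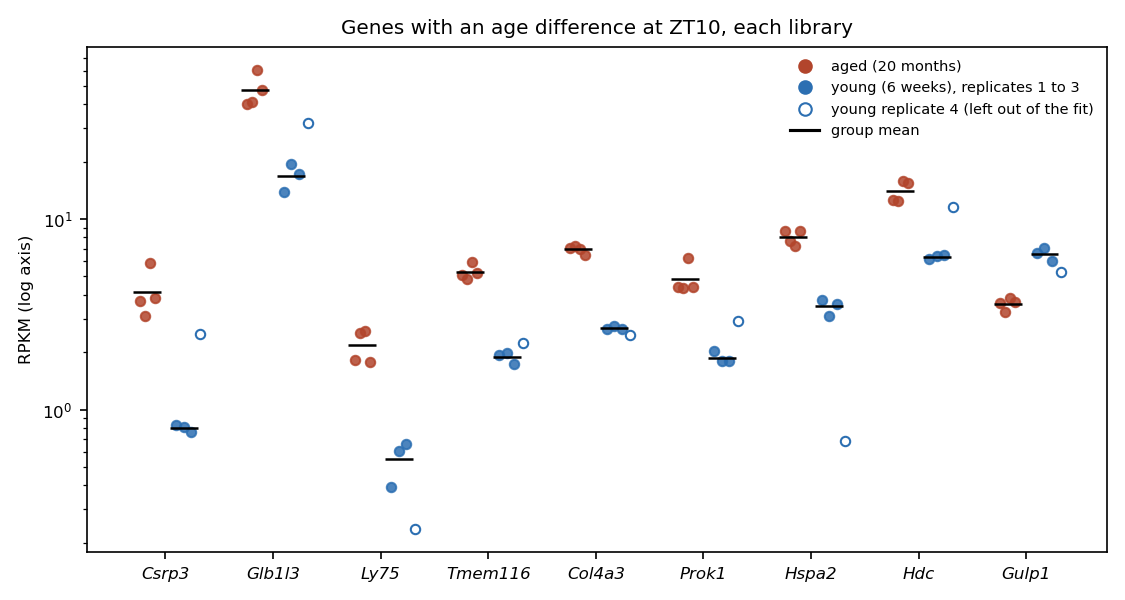
RPKM of 9 called genes in each ZT10 library on a log axis, aged at the left and young at the right of each gene, with the group mean as a bar. For each gene every aged library lies on one side of young replicates 1 to 3; the open circle is young replicate 4, which for Csrp3, Glb1l3, Tmem116, Prok1, Hdc and Gulp1 lies between the groups, and for Ly75, Col4a3 and Hspa2 on the far side of the young ones.

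The other 5 called genes were Gm7239, Gm11843, Gm2027, Gm28876 and ENSMUSG00000120913, all higher in aged retina and all outside the rule for named genes. Gm7239, Gm11843 and Gm2027 are annotated as processed pseudogenes and can share reads with their parent genes, so their values are uncertain. Gm7239 had the largest log2 difference of the called genes, with 3.10, 3.61, 3.79 and 3.09 RPKM in the aged libraries, against 0.564, 0.299 and 0.505 RPKM in the young ones (log2 difference 2.03 ± 0.13, limma's adjusted p = 0.00337). Gm28876, a long intergenic RNA, had 2.29, 1.86, 1.83 and 2.28 RPKM in the aged libraries, against 0.438, 0.473 and 0.519 RPKM in the young ones. Of the 15 called genes, 12 reached 0.5 RPKM in both ages, while Gm2027 and ENSMUSG00000120913 did so only in aged and ENSMUSG00000120235 only in young libraries, so these 3 entered the test only through the age where they were high.

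Reads behind the values were ample for the genes with a full name. Csrp3, the least covered of them in young retina, rested on 328 to 545 reads in the aged libraries, against 70 to 93 reads in the young ones, and Col4a3 on 2388 to 2853 reads, against 875 to 1167 reads. The number of calls still depended on single libraries. It was 7, 8, 39 and 3 without aged replicates 1, 2, 3 and 4 in turn, and 2, 3 and 5 without young replicates 1, 2 and 3. Col4a3 passed the adjusted p in each of these 7 fits (highest adjusted p = 0.0264) and Tmem116 in 6, whereas Glb1l3, Ly75, Prok1 and Gulp1 passed in 1, the fit without aged replicate 3. None of the 9 genes with a full name turned its sign in any of them. With young replicate 4 added, 4 genes were called (0.0263%), Col4a3, Tmem116, Gm7239 and Gm2027, each of them among the 15.

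The other 5 sampling times (ZT2, 6, 14, 18 and 22) gave 39 libraries from other mice, in which the same genes could be looked at again. All 15 called genes had the same sign there and passed limma's adjusted p, where 7.42% of all genes passed it (3.00% higher and 4.43% lower in aged), and 13 also passed the fold cut-off, where 0.512% did. The 39 libraries include aged ZT6 replicate 3, with only 19310 genes above 0. Without that library all 15 still had the same sign and passed limma's adjusted p. The difference at those times was 1.08 ± 0.07 for Col4a3, 1.70 ± 0.13 for Csrp3, 1.41 ± 0.07 for Glb1l3 and 1.03 ± 0.07 for Hdc, close to the values at ZT10. In a fit of 46 libraries with a mean per age and time, Col4a3, Csrp3, Glb1l3, Hdc and Tmem116 were higher and past limma's adjusted p at each of the 6 times, and Prok1 at 5. Hspa2 had a difference above 0 at all 6 times and passed the adjusted p at ZT10 alone, and Gulp1 one below 0 at all 6, passing at 3.

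Levels of Col4a3 and Ly75 also differed between clock times. Mean Col4a3 in aged libraries was 4.07, 7.30, 6.93, 3.92, 4.14 and 3.36 RPKM at ZT2, 6, 10, 14, 18 and 22, against 1.57, 2.74, 2.68, 1.95, 1.41 and 1.53 RPKM in young libraries at those times. Both ages were highest at ZT6 and ZT10, and the level in aged retina stood above the level in young retina throughout. Mean Ly75 in aged libraries was 1.13, 1.92, 2.17, 0.782, 0.641 and 0.552 RPKM at those times, against 0.287, 0.614, 0.553, 0.378, 0.239 and 0.279 RPKM in young libraries. Its levels were likewise highest at ZT6 and ZT10 at both ages, and its age difference passed the adjusted p at ZT2, 6 and 10. Mean Hspa2 in aged libraries was 4.73, 6.54, 8.03, 6.47, 5.69 and 4.45 RPKM, against 2.93, 3.72, 3.48, 3.69, 2.67 and 3.46 RPKM in young libraries. No test of the change over time was made.

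Whether the age difference at ZT10 itself departs from that at the other times was tested as an interaction over 46 libraries. No gene passed (0%), with a smallest adjusted p of 0.481 in limma and 294 genes at an unadjusted p under 0.05. Of the called genes, Ly75 had 0.73 ± 0.09 at the other times and a ZT10 difference larger by 0.61 ± 0.22 (unadjusted p = 0.00746, adjusted p = 1). ENSMUSG00000120913 had 0.32 ± 0.07 at the other times and a ZT10 difference larger by 0.76 ± 0.19 (unadjusted p = 0.000298, adjusted p = 1). Hspa2 had 0.62 ± 0.11 at the other times and a ZT10 difference larger by 0.47 ± 0.27 (unadjusted p = 0.0933). Gm28876 had 0.87 ± 0.14 at the other times and a ZT10 difference larger by 0.51 ± 0.34 (unadjusted p = 0.140). None of these departures passed the adjusted p. All were of genes called on ZT10 libraries that also enter this test, which favours a larger difference at ZT10. Their unadjusted p-values therefore overstate the evidence.

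**Figure D4:**
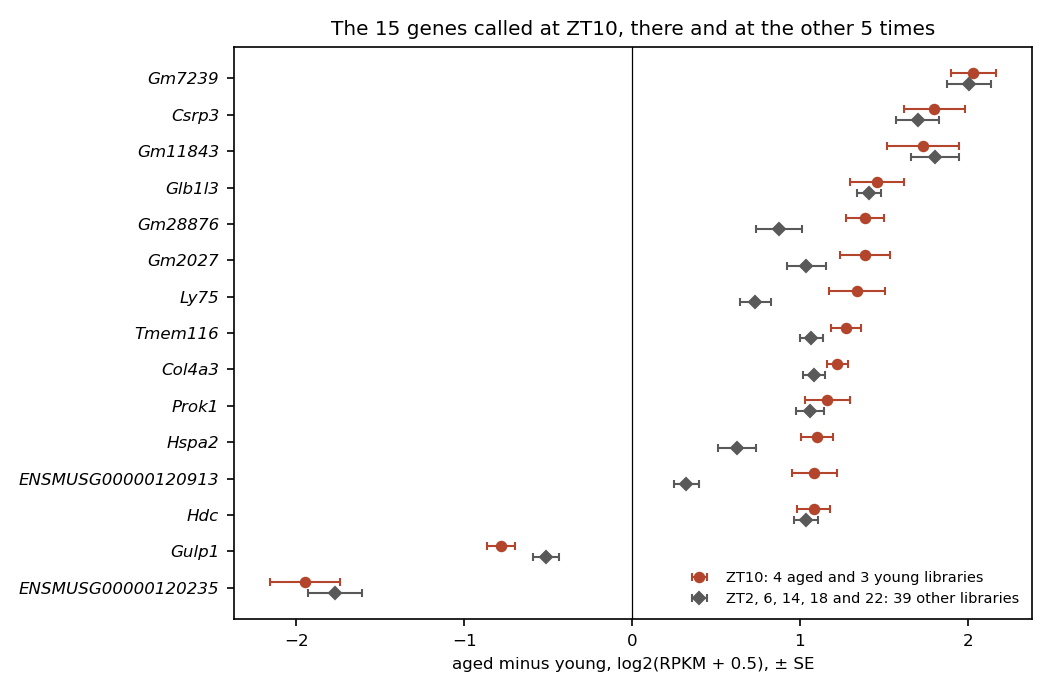
Log2 difference aged minus young (± SE) of the 15 called genes at ZT10 (red circles, above) and over the other 5 times (grey diamonds, 39 libraries of other mice). All 15 keep their sign, and the distance between the estimates is wide for Gm28876, Ly75, Hspa2 and ENSMUSG00000120913. The genes were called on their ZT10 values, which favours larger differences there.

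A wider set appeared when the spread was taken from all 46 libraries with 12 group means. Then 56 genes were called at ZT10 (0.368%), 49 higher (0.322%) and 7 lower (0.0460%) in aged retina, and 69 passed the adjusted p alone (0.453%), 12 of them lower (0.0788%). All 15 were among them, and 51 of the 56 had the same sign and passed the adjusted p at the other 5 times. The fit that chose the 56 took its spread from the libraries of those times too, so the 51 are no independent count. Without aged replicate 3, the 7-library design gave 39 calls (0.256%), 28 higher (0.184%) and 11 lower (0.0723%), again with all 15 among them, and 32 had the same sign and passed at the other times. Further genes called in at least 1 of these fits and past the other parts of the naming rule numbered 34, of which 29 were higher and 5 lower. They were chosen after their values were seen, by a rule that requires groups without overlap, and none passed both cut-offs in the 7-library comparison.

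Gsc2 and Atf3 of this set encode transcription factors. Gsc2, a goosecoid-family homeobox gene, had 13.9, 12.4, 20.8 and 17.9 RPKM in the aged libraries, against 4.29, 4.52 and 7.14 RPKM in the young ones (log2 difference 1.53 ± 0.22, limma's adjusted p = 0.0566, and 0.00364 with the spread of 46 libraries). Young replicate 4 read 22.2 RPKM for Gsc2, above every aged library. Atf3, a stress-induced bZIP factor, had 6.45, 4.99, 8.43 and 6.33 RPKM in the aged libraries, against 2.91, 3.45 and 3.81 RPKM in the young ones (log2 difference 0.84 ± 0.16, adjusted p = 0.13, and 0.00166 with 46 libraries), while young replicate 4 read 6.40 RPKM, within the aged range.

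Rdh1 and Crabp1 of this set encode proteins that act on retinoids. Rdh1, a retinol dehydrogenase, had 1.96, 1.26, 1.73 and 0.969 RPKM in the aged libraries, against 0.471, 0.220 and 0.428 RPKM in the young ones (log2 difference 1.17 ± 0.21, adjusted p = 0.103 in limma, and 0.00375 with 46 libraries), while young replicate 4 read 0.280 RPKM. Crabp1, a cytoplasmic retinoic acid carrier, had 12.2, 10.1, 8.84 and 8.41 RPKM in the aged libraries, against 4.08, 5.91 and 5.45 RPKM in the young ones (log2 difference 0.88 ± 0.15, adjusted p = 0.0967, and 0.0433 with 46 libraries), while young replicate 4 read 2.00 RPKM. At the other 5 times the difference of Crabp1 was 0.18 ± 0.09 (adjusted p = 0.238), and its interaction did not pass the adjusted p. Clic6, a chloride intracellular channel family member, and Tff2, a secreted trefoil peptide, had log2 differences of 1.06 ± 0.15 and 1.19 ± 0.21, with an adjusted p of 0.0576 for Clic6 and 0.0899 for Tff2, and of 0.0205 and 0.0415 with 46 libraries. Bst1, an ectoenzyme of the CD38 family, had 10.2, 6.93, 8.31 and 7.46 RPKM in the aged libraries, against 3.02, 4.03 and 5.90 RPKM in the young ones, with a log2 difference of 0.89 ± 0.21 (adjusted p = 0.23, and 0.0221 with 46 libraries). Young replicate 4 read 10.5 RPKM for Bst1, above every aged library.

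The 5 genes on the lower side of this wider set include Mylk, described above. Another was Serinc5, a membrane protein of the serine incorporator family, with 3.38, 4.25, 2.25 and 3.42 RPKM in the aged libraries, against 5.83, 5.41 and 5.78 RPKM in the young ones (log2 difference -0.72 ± 0.17, limma's adjusted p = 0.231, and 0.00765 with 46 libraries), while young replicate 4 read 2.09 RPKM, below every aged library. Nanos1, a translational repressor, had 4.56, 4.10, 4.66 and 4.64 RPKM in the aged libraries, against 6.04, 7.81 and 7.44 RPKM in the young ones (log2 difference -0.60 ± 0.10, adjusted p = 0.0791, and 0.00133 with 46 libraries), while young replicate 4 read 5.25 RPKM. Esco1, a cohesin acetyltransferase, had 9.32, 9.79, 12.3 and 10.1 RPKM in the aged libraries, against 17.4, 15.1 and 18.7 RPKM in the young ones, and was called only without aged replicate 3 (log2 difference -0.77, adjusted p = 0.0123). Young replicate 4 read 16.1 RPKM for Esco1, and its age difference at the other times was 0.10 ± 0.11. The mitochondrially encoded complex I subunit mt-Nd3 was likewise called only without aged replicate 3, at -0.84 (adjusted p = 0.0101), and had a difference of -0.03 ± 0.14 at the other times.

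Of 51 gene lists, 49 had no member past the adjusted p at ZT10. The exceptions were the collagen list, through Col4a3, and a list taken from earlier results of these data, where 7 of 16 tested genes were higher and none lower. That list was chosen on these samples and is no independent evidence. Below, list values are described by the count of positive differences, the median, and the count of members whose groups do not overlap, which was 10.5% over all genes (5.45% with aged higher and 5.01% with aged lower). List values at the other 5 times include aged ZT6 replicate 3, a library with only 19310 genes above 0, and were not taken without it.

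Antigen presentation genes, which encode MHC class I molecules and the proteins that load them with peptide, had log2 differences above 0 for 15 of 15 tested members, with a median of 0.44. In 9 of the 15 the aged libraries lay above the young ones, but none passed the adjusted p. H2-K1, a classical class I heavy chain, had 22.7, 22.7, 18.3 and 15.7 RPKM in the aged libraries, against 11.5, 9.81 and 11.1 RPKM in the young ones (log2 difference 0.83 ± 0.14, limma's adjusted p = 0.0801). Aged replicates 1 and 2 were the highest. Erap1, the peptidase that trims peptides for class I, had 3.96, 3.60, 4.44 and 3.88 RPKM in the aged libraries, against 2.61, 2.75 and 2.50 RPKM in the young ones (log2 difference 0.52 ± 0.09, adjusted p = 0.0833). Tap2, a subunit of the peptide transporter, had a log2 difference of 0.74 ± 0.14 (adjusted p = 0.112). The summed list was 140.2, 145, 109 and 110.5 RPKM in the aged libraries, against 95.1, 90.0 and 84.9 RPKM in the young ones. The median was 0.23 at the other 5 times, where 6 members were higher by the adjusted p.

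Interferon response genes had 19 of 19 differences above 0, a median of 0.36, 2 members without overlap and none past the adjusted p. Ifi27, an interferon-induced mitochondrial protein gene, had 8.58, 11.6, 5.97 and 4.89 RPKM in the aged libraries, against 3.76, 3.15 and 3.34 RPKM in the young ones (log2 difference 1.01 ± 0.25, limma's adjusted p = 0.287). The aged libraries spread widely, with replicates 1 and 2 highest. Irf7, a transcription factor of the interferon response, had a log2 difference of 0.28 ± 0.13 with overlapping groups. Summed over the list, the aged libraries held 65.8, 80.6, 45.7 and 42.6 RPKM and the young ones 43.4, 37.0 and 38.5 RPKM, with aged replicate 4 below young replicate 1.

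Of 21 microglial markers, 14 were tested. They had 14 of 14 differences above 0, a median of 0.31 and 3 members without overlap, and none passed the adjusted p. Tmem119, a marker of resident microglia, had 1.59, 2.09, 1.73 and 1.41 RPKM in the aged libraries, against 1.05, 1.05 and 0.851 RPKM in the young ones (log2 difference 0.57 ± 0.13, adjusted p = 0.227 in limma). Ctss, a lysosomal protease of microglia, had a log2 difference of 0.42 ± 0.09 without overlap. The summed markers were 37.8, 44.5, 38.1 and 32.7 RPKM in the aged libraries, against 31.1, 29.8 and 28.7 RPKM in the young ones. Complement genes had 8 of 8 differences above 0, a median of 0.32 and 1 member without overlap. C1qc, a chain of the initiator C1q, was at 0.52 ± 0.16. Gliosis genes, known to be induced in stressed Müller glia, had 16 of 17 above 0, a median of 0.22 and 1 member without overlap. Their summed RPKM overlapped between the ages, and their median was 0.03 at the other 5 times. Lcn2, a secreted iron-siderophore carrier, had 3.80, 3.50, 4.67 and 3.40 RPKM in the aged libraries, against 2.47, 2.35 and 2.05 RPKM in the young ones (log2 difference 0.63 ± 0.12, adjusted p = 0.120), while the intermediate filament gene Gfap overlapped at 0.17 ± 0.21. The microglial, antigen presentation and complement sums were each higher in every aged library than in the young libraries used. Their order among the aged libraries differed between the lists. The part of microglia in the other lists was not tested. Sums were also higher in every aged library for the chaperone, fatty acid oxidation, and glucocorticoid and metallothionein lists, and for the list from earlier results. They were lower in every aged library for the clock activator, lymphocyte, and dopamine and melatonin lists.

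**Figure D5:**
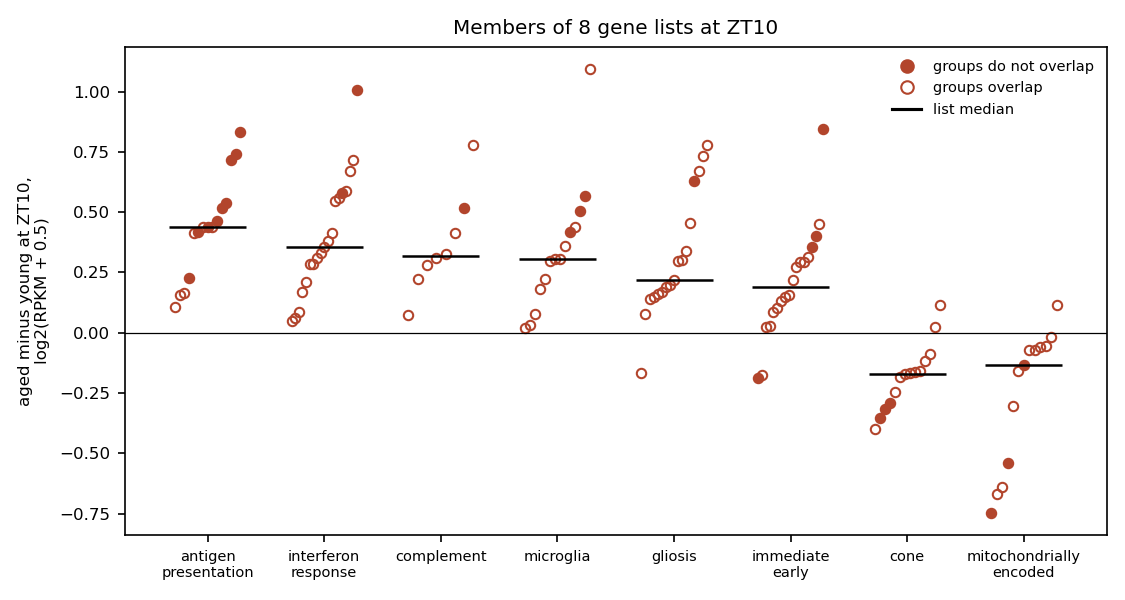
Log2 difference aged minus young at ZT10 of every tested member of 8 lists, ordered by size within each list, with the list median as a bar. Filled circles are members whose aged and young libraries do not overlap; the antigen presentation, interferon, complement and microglia lists lie wholly above 0, while most cone and mitochondrially encoded genes lie below it.

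Immediate early genes, which neurons switch on within minutes of activity, had 16 of 18 differences above 0 and a median of 0.19. None passed the adjusted p, and Atf3 passed it in the 46-library fit. The groups did not overlap for 3 members with aged higher and 1 with aged lower. Ier2 had 14.5, 15.7, 16.0 and 13.9 RPKM in the aged libraries, against 10.3, 10.4 and 13.3 RPKM in the young ones (log2 difference 0.40 ± 0.10, limma's adjusted p = 0.274). For Fos and Egr1 the groups overlapped, with log2 differences of 0.27 ± 0.20 and 0.45 ± 0.31. The median of the list was -0.04 at the other 5 times.

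Cone genes had 12 of 14 differences below 0, a median of -0.17, 3 members without overlap and none past the adjusted p. Their sum was 737, 695, 839 and 707 RPKM in the aged libraries, against 779, 849 and 873 RPKM in the young ones, with aged replicate 3 the highest of the aged. Pde6c, the catalytic subunit of the cone phosphodiesterase, had 42.7, 40.2, 46.7 and 42.5 RPKM in the aged libraries, against 51.2, 54.9 and 54.6 RPKM in the young ones (log2 difference -0.31 ± 0.06, limma's adjusted p = 0.144). Without aged replicate 3 Pde6c passed the adjusted p, at -0.35 (adjusted p = 0.0378). Arr3, the cone arrestin, had 108, 94.5, 122 and 104 RPKM in the aged libraries, against 125, 135 and 132 RPKM in the young ones (log2 difference -0.29 ± 0.09, adjusted p = 0.409). Cngb3, a cone channel subunit, had 3.83, 3.88, 4.66 and 5.0 RPKM in the aged libraries, against 5.19, 6.25 and 5.54 RPKM in the young ones, while the cone opsin Opn1mw overlapped at -0.40 ± 0.15. The cone median was -0.09 at the other 5 times. The 24 rod genes had a median of -0.01 and no member without overlap.

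Markers of inner retinal neurons and of Müller glia showed no member past the adjusted p. The median was -0.12 for bipolar, -0.09 for amacrine and -0.02 for ganglion cell markers. With aged replicate 3 left out, the median was 0.26 for ganglion and 0.12 for amacrine cell markers. Of the 20 genes on the Müller list, 11 had a difference above 0, the median was 0.05, and 4 were without overlap, 2 in each direction. With aged higher these were Apoe, a lipid carrier, at 0.37 ± 0.14, and Car2, a carbonic anhydrase, at 0.28 ± 0.07. With aged lower they were Spc25 at -0.60 ± 0.10 and the glutamate transporter gene Slc1a2 at -0.16 ± 0.05. A place on this list does not make Slc1a2 a transcript of Müller glia, and the cells behind its difference were not tested.

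No core clock gene passed the test at ZT10. Of 25 tested, the smallest adjusted p in limma was 0.409, and 9 log2 differences were above 0. In 22 of the 25 the aged and young libraries overlapped. Among the activators, Rorb, a nuclear receptor, had 19.4, 15.4, 15.9 and 18.6 RPKM in the aged libraries, against 22.6, 22.4 and 19.8 RPKM in the young ones, without overlap. Clock and Arntl, the paired bHLH activators that drive the loop, overlapped at -0.17 ± 0.11 and 0.06 ± 0.08. The nuclear receptor gene Rora, whose product activates Arntl, overlapped at -0.07 ± 0.05.

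Of the repressors that close the loop, Per1 had 17.0, 17.6, 15.6 and 17.2 RPKM in the aged libraries, against 14.2, 14.7 and 15.3 RPKM in the young ones. Cry1 had 22.7, 22.1, 21.6 and 20.4 RPKM in the aged libraries, against 19.9, 19.3 and 20.2 RPKM in the young ones. Every aged library lay above every young one for both genes by a small margin, with log2 differences of 0.19 ± 0.06 for Per1 (limma's adjusted p = 0.430) and 0.13 ± 0.05 for Cry1 (adjusted p = 0.569). At the other 5 times these differences were -0.06 ± 0.06 for Per1 and 0.01 ± 0.03 for Cry1. Per2, Per3 and Cry2 overlapped, at -0.18 ± 0.14, -0.20 ± 0.12 and -0.03 ± 0.17. So did the REV-ERB genes Nr1d1 and Nr1d2, which repress Arntl, at -0.00 ± 0.10 and -0.13 ± 0.08, and the repressor gene Ciart at -0.08 ± 0.16.

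Clock output and modifier genes overlapped throughout. The PAR bZIP factors Dbp, Tef and Hlf had differences of -0.18 ± 0.14, -0.05 ± 0.08 and -0.01 ± 0.20, and Nfil3, their antagonist, of 0.07 ± 0.08. The bHLH repressors Bhlhe40 and Bhlhe41 had 0.05 ± 0.24 and 0.06 ± 0.05. The kinases Csnk1d and Csnk1e, which phosphorylate PER proteins, had 0.10 ± 0.06 and -0.04 ± 0.16. The ubiquitin ligase genes Fbxl21 and Btrc had -0.03 ± 0.17 and -0.07 ± 0.07, and Timeless had 0.02 ± 0.17.

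Chaperone genes had 21 of 28 differences above 0, a median of 0.07, and 7 members without overlap, all with aged higher. Cryab, a small heat shock protein that is also abundant in lens, had 34.9, 21.5, 39.5 and 23.7 RPKM in the aged libraries, against 12.3, 14.2 and 17.6 RPKM in the young ones (log2 difference 0.97 ± 0.22, limma's adjusted p = 0.228). Hspb1, of the same family, had 4.83, 5.76, 4.5 and 3.47 RPKM in the aged libraries, against 2.50, 2.58 and 2.81 RPKM in the young ones (log2 difference 0.70 ± 0.15, adjusted p = 0.178). Hspa2 stands outside this list. Within each age, Cryab ranked the libraries used in the same order as the summed lens genes given below. The part of lens in the Cryab difference was not tested. Fatty acid oxidation genes had a median of 0.08. Acadm, the medium-chain acyl-CoA dehydrogenase, averaged 37.1 ± 5.43 RPKM in aged and 26.7 ± 2.62 RPKM in young libraries (SD, n = 4 and 3), with limma's adjusted p = 0.279, and 0.0415 with the spread of 46 libraries. Mitochondrially encoded transcripts had differences below 0 for 12 of 13 genes, with a median of -0.14, none past the adjusted p, and a median of 0.16 at the other times. Among them mt-Co3, a cytochrome oxidase subunit, had 80.5, 55.7, 101 and 71.2 RPKM in the aged libraries, against 108, 118 and 104 RPKM in the young ones.

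Markers of tissues next to the retina varied between libraries. Lens crystallins and filament genes summed to 128, 14.4, 572 and 85.7 RPKM in aged replicates 1 to 4, against 1.72, 10.8 and 50.5 RPKM in young replicates 1 to 3, with overlap. Their median log2 difference was 2.54 over 11 tested genes, and none passed the adjusted p. Young replicate 4 held 136 RPKM of them. Haemoglobin genes and Alas2, the markers of blood, had differences below 0 in 5 of 5 at ZT10, with overlap, a median of -0.72 and none past the adjusted p. At the other 5 times the median was 1.50 and all 5 were higher by limma's adjusted p, and none passed the interaction. The summed blood list was 12.3, 54.0, 41.4 and 18.8 RPKM in the aged libraries, against 34.0, 60.2 and 58.1 RPKM in the young ones. Markers of the pigment epithelium, which adjoins the photoreceptors, had a median of 0.05 and summed to 182 to 231 RPKM in the aged libraries, against 187 to 195 RPKM in the young ones. The part of lens, blood and pigment epithelium in the called genes was not tested.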

How the data were processed

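Per the labels' protocols, TRIzol RNA went through poly-T selection before random-hexamer priming. FastQC 0.23.4, HISAT2 2.2.1, Subread 2.0.6 and the build GRCm39 are named in the submitters' processing notes, without their roles; no annotation release or strandedness is given in the sources used here, so overlapping and antisense genes cannot be told apart. The authors deposited RPKM values in 1 column per library. A further 1 column matched no sample and was left out. Gene names, biotypes and exon lengths come from GENCODE M21 (GRCm38).

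The RPKM values were turned into log2(RPKM + 0.5) and fitted with limma 3.58.1 under R 4.3.3 (group means, trended eBayes, Benjamini-Hochberg over 15222 genes with at least 0.5 RPKM in 3 of 7 libraries). Whole reads were recovered from the RPKM steps for 37323 of 37323 genes above 0, within 0.01 of a whole number. For 4544 of these the exon length was itself searched so that reads came out whole. The reads gave the depth and a limma voom alternative. On simulated data, 82.1% of genes changed by 1 on the log2 scale were recovered in the 7-library comparison of 15222 genes, and 100% of those changed by 1.5 or 2. The simulation gave every gene the same spread, changed only well-covered genes and held no deviating library such as aged replicate 3. These shares therefore check the procedure and do not measure its power in the real libraries.

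Each library's group follows from the age and time its title states. Nothing says whether a library is 1 mouse, so p-values measure the spread between libraries. The genes named were those called, without overlap of the groups, averaging 1 RPKM or more in either age, and not under a clone, accession-like or pseudogene name (at most 15 per direction), list members past the adjusted p (at most 4 per list), every tested clock gene and up to 5 genes from the interaction. Some genes that this rule names are not reported here. Genes described outside this rule were chosen after their values were seen. The members and lists were chosen with earlier results of these data known. Alternatives covered the pseudocount, filter, scaling, spread, replicate block, single libraries and the reads.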

Additional observations from a re-analysis of the deposited data

Results flagged for a closer look

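In a group of 4 libraries, a value was marked where its gap to the nearest other value was above 0.829 of the group's range, which chance does in about 1 of 20 groups. Of 124 genes examined, 6 were marked in the aged group, 5 of them through aged replicate 3. For Prok1 that library had 6.28 RPKM, against 4.32 to 4.41 RPKM in the other aged libraries, and it was the highest for Mylk (8.06 RPKM) and for the lens gene Crygb (1.73 RPKM). It was the lowest for Clock (6.39 RPKM) and for Fos (4.99 RPKM). Tap2 was marked through aged replicate 1, at 3.20 RPKM.

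Of 44 measures of the libraries, 12 were marked. Aged replicate 3 had the highest sum of mitochondrially encoded transcripts among the aged libraries (25600 RPKM, 3.22% of its reads). The others belong to young replicate 4. Its correlation with the median of the other ZT10 libraries was 0.864 (log2 values across genes), its rod markers summed to 47880 RPKM, its ribosomal protein genes to 25090 RPKM, its mitochondrially encoded transcripts to 32960 RPKM and its blood genes to 281 RPKM, each apart from the other 3 young libraries. Its sums were low for horizontal cell (13.0 RPKM), Müller (295 RPKM), microglial (4.66 RPKM), complement (63.2 RPKM) and gliosis genes (43.2 RPKM).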

How the results depend on the processing

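Over the 15 calls (16 by the adjusted p alone), pseudocounts of 0.1 and 1, median-ratio and quantile scaling, a filter of 1 RPKM in 4 libraries and robust moderation gave 12 to 16 (13 to 17). With young replicate 4 both counts were 4, without a filter they were 8 and 9, with 46 libraries 56 and 69, with 45 libraries (without aged ZT6 replicate 3) 62 and 97, and with limma voom on reads 27 and 28. Leaving out 1 library gave 2 (without young replicate 1) to 39 (without aged replicate 3) for both cut-offs, and 2 to 56 for the adjusted p alone. With the replicate number as a block, no genes differing by age at ZT10 were called (both counts 0, by limma), with 945 at an unadjusted p under 0.05. Deviations of same-numbered aged and young libraries from their group means correlated at 0.058, -0.043 and 0.105. These few values cannot settle whether the numbers pair the libraries. Of the genes called, those also past the adjusted p with the same sign at the other times were 4 with young replicate 4 and 2 to 32 when 1 library was left out. The interaction passed for no gene under any setting run but 1: without aged replicate 2 it passed for Ighj4 (adjusted p = 3.22e-06), so the count ran from 0 to 1. Its voom fit, and the fit without aged ZT6 and ZT10 replicates 3 together, were chosen after seeing the data and gave 0. No called gene reversed in sign. Of 51 list medians 26 were above 0, against 37 with young replicate 4. The cause of these shifts was not tested. Depth limits the pseudogenes and unnamed genes most, with as few as 4 reads in a library.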

Other observations

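Several further genes differed without overlap of the groups but missed limma's adjusted p, and were picked after their values were seen. Sst, the somatostatin gene of a class of amacrine cells, had 7.06, 6.27, 7.39 and 7.24 RPKM in the aged libraries, against 2.73, 3.63 and 4.5 RPKM in the young ones (log2 difference 0.88 ± 0.14, adjusted p = 0.0791). Its difference at the other 5 times was 0.24 ± 0.21, and of the 25 amacrine markers only 7 had a ZT10 difference above 0 (median -0.09). Plvap, the diaphragm protein of fenestrated endothelium, had a log2 difference of 0.72 (adjusted p = 0.0866), while 4 of the 12 endothelial markers in all were above 0. Maob, a monoamine oxidase, had 1.35, 1.28, 1.22 and 1.15 RPKM in the aged libraries, against 0.652, 0.628 and 0.789 RPKM in the young ones (log2 difference 0.56 ± 0.11, adjusted p = 0.144). Apobec2, a cytidine deaminase family gene, had 2.49, 2.02, 1.91 and 1.85 RPKM in the aged libraries, against 4.56, 4.74 and 3.27 RPKM in the young ones (log2 difference -0.86 ± 0.14, adjusted p = 0.0833). Apobec2 had -0.77 ± 0.10 at the other 5 times.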
